A study of Oryctolagus cuniculus with 16 samples.

Results

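Expression of the histone genes was compared between Perthes and control rabbits in femoral head tissue. The members were the 64 genes, of 20255 in the authors' count table, whose description opens with the word histone followed by H1, H2, H3 or H4 and names neither a transcription factor nor an enzyme. The series holds total RNA-seq of 5 Perthes and 3 control femoral heads, and the libraries of small RNA were not used here. The Perthes disease group consisted of 8-week-old wild-type rabbits with surgically induced ischemia of the femoral head, made by a ligature around the neck of the bone and division of its round ligament. The control group was labelled wild-type. Its age and any sham operation, and the time between surgery and sampling, were not given in the sources used here. The model is a surgical one. RNA was extracted from femoral head tissue, and no sorting of cells was described. The 8 libraries held 26757094 to 29461494 expected counts each.

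Histones are the proteins around which DNA is wound. A pair each of H2A, H2B, H3 and H4 forms the nucleosome core, and the linker histone H1 binds where the DNA enters and leaves it. Most histone genes are replication-dependent. They lie in clusters, have no introns, and are transcribed mainly while DNA is copied in S phase. Their mRNAs end in a stem-loop in place of a poly(A) tail, so they are seen in total RNA depleted of ribosomal RNA, as here, and are largely missed when poly(A) RNA is selected. Variant histones such as H2A.Z and H3.3 come from genes with polyadenylated mRNAs that are also made outside S phase. In marrow-containing bone, dividing precursors of blood cells are a known source of replication-dependent histone mRNA.

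By their descriptions, 53 of the 64 members were taken as replication-dependent type and 11 as variants. The replication-dependent type comprised 1 H1, 16 H2A, 15 H2B, 9 H3 and 12 H4 genes. Of all members, 59 passed the low-count filter and were tested. The 5 that did not pass had at most 12 counts in any library. They were LOC100347117, described as histone H3.1 and named H3-4 in RefSeq, LOC100354620 (H3-like), LOC100350750 (H2B type 1-A), LOC103351788 (H2A-Bbd type 1) and LOC108176693 (H2A.V-like).

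Histone RNA was lower in every Perthes rabbit than in any control. Members took 0.140%, 0.628%, 0.256%, 0.202% and 0.192% of the counts of Perthes rabbits 1 to 5 and 1.46%, 1.06% and 0.918% of those of controls 1 to 3. In counts per 1000000 of the plain library total (CPM), this was 2836 ± 1968 (SD, n = 5) in the Perthes group and 11476.5 ± 2825.9 (SD, n = 3) in the control group, a ratio of 0.247. All other CPM values were scaled by TMM factors. On that scale the members summed to 1291, 6693, 2760.2, 2141 and 1928 CPM in Perthes rabbits 1 to 5 and to 14421, 10018 and 8787 CPM in the controls. The groups did not overlap, and Perthes rabbit 2 lay nearest to the controls. The control mean was 3.74-fold the Perthes mean, and 5.46-fold without Perthes rabbit 2. In these bulk samples, fewer cells of a type and less histone RNA per cell cannot be told apart.

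Of the 59 tested members, 33 fell in the Perthes group in edgeR's quasi-likelihood test (adjusted p below 0.05), while 8.87% of all 15305 genes tested were called lower. All 33 fell by more than 1 on the log2 scale, beside 6.72% of all genes. An unadjusted p below 0.05 with a lower level was reached by 48 members, beside 16.6% of all genes. No member was called higher (0 of 59, beside 6.21% of all genes), and 1 member had a higher level at an unadjusted p below 0.05, beside 15.3% of all genes. The median log2 fold change of the tested members was -1.88, while that of all tested genes was 0.02. In 37 members every Perthes rabbit lay below every control, beside 13.9% of all genes, and in 1 every Perthes rabbit lay above every control, beside 11.2%. DESeq2 called 47 members lower, beside 11.0% of its genes, and 1 higher, beside 9.74%. At the thresholds of the paper, a log2 fold change below -2 and an adjusted p below 1e-05, edgeR called 0 members and 0.00% of all genes (17 members passed this fold at an unadjusted p below 0.05), and DESeq2 called 6 members and 0.544% of its genes.

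The count of members called depended on which rabbits entered the fit. Without Perthes rabbit 2, 49 members were called lower, beside 10.7% of the genes tested, and the 33 members were all among them. The fit without this rabbit is quoted again below for classes and single genes. The rabbit was singled out because it lay nearest to the controls. A larger fall without it was thus fixed in advance and is no further support. Without Perthes rabbit 1, 3, 4 or 5, the counts were 21, 10, 19 and 10 members, beside 7.88%, 4.25%, 9.39% and 3.61% of the genes tested. Without control 1 the test called 3 members and 1.18% of genes, and without control 3 it called 20 members and 7.58%. Without control 2 no gene of the table passed (0 members, 0.00%), so that every call given here is lost in that fit, although 48 members still had a lower level at an unadjusted p below 0.05. The members' median log2 fold change stayed between -2.39 and -1.49 in these 8 fits.

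**Figure D1:**
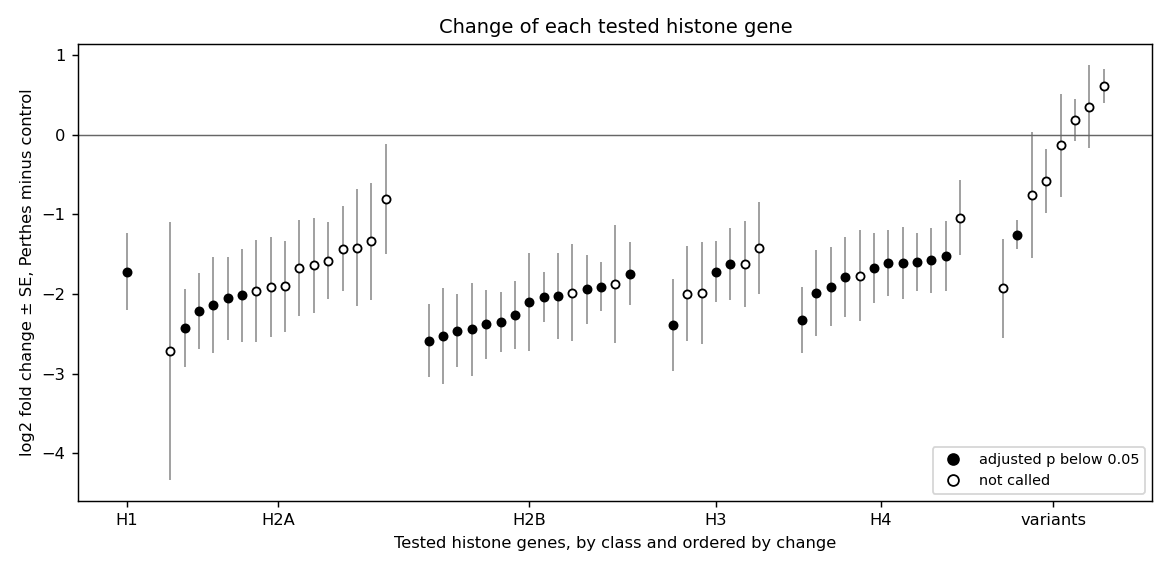
Log2 fold change ± SE (Perthes minus control) of each of the 59 tested histone genes, by class of the replication-dependent type and with the variants at the right. Filled circles mark genes called by edgeR (adjusted p below 0.05). All 51 tested genes of the replication-dependent type lie below 0, while the 8 tested variants lie on both sides of 0.

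All 51 tested genes of the replication-dependent type had a log2 fold change below 0, from -2.71 to -0.81, and 32 of them fell. Their sum was 1176, 6337, 2529, 1988 and 1723 CPM in Perthes rabbits 1 to 5 and 13794, 9631 and 8436 CPM in the controls. Among the variants, 1 of 8 tested genes fell, and the median log2 fold change was -0.36. The variants summed to 115, 356, 231, 153 and 205 CPM in the Perthes rabbits and to 627, 387 and 351 CPM in the controls, and here Perthes rabbit 2 lay within the control range. Whether the replication-dependent genes changed more than the variants was not tested, as members are not replicates of a condition.

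**Figure D2:**
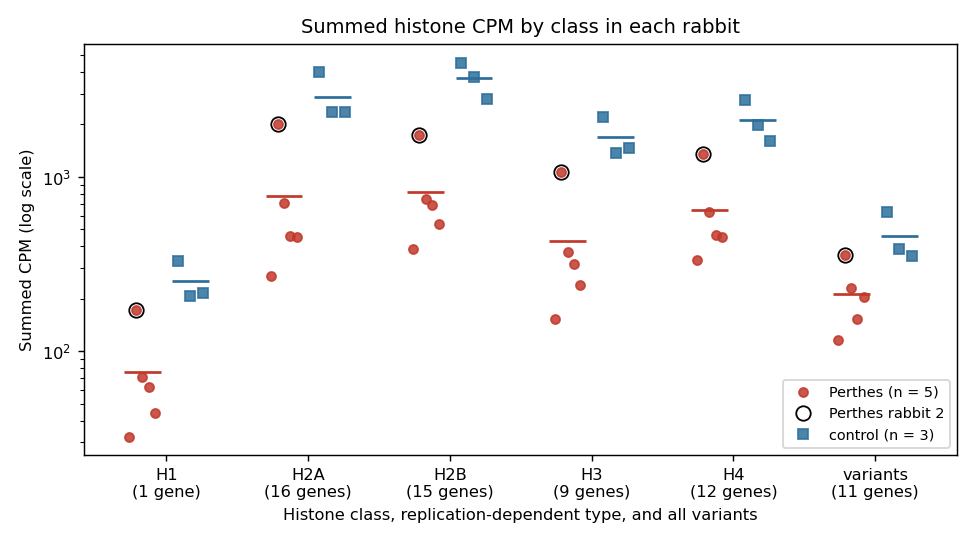
Summed CPM (log scale) of the replication-dependent genes of each class and of all variants, 1 point per rabbit, with Perthes rabbits as red circles, controls as blue squares and group means as bars. In each of the 5 classes all Perthes rabbits lie below all controls, and Perthes rabbit 2, ringed in black, is the highest of the Perthes group.

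H2B, which pairs with H2A in the nucleosome core, had the most members called. Of its 15 genes of the replication-dependent type 13 fell, and the 2 others, LOC100343938 and LOC100344952, had log2 fold changes of -1.98 and -1.88 (adjusted p = 0.0566 and 0.118). The class summed to 387, 1746, 747, 685 and 536 CPM in the Perthes rabbits and to 4513, 3729.6 and 2804 CPM in the controls. The control mean was 4.49-fold the Perthes mean. LOC100347785, an H2B type 1 gene, had 28.1, 150.1, 79.7, 61.0 and 71.2 CPM in the Perthes rabbits and 496, 609 and 302 CPM in the controls. It had the largest fall among the members called with groups that did not overlap, with a log2 fold change of -2.59 (SE 0.46, adjusted p = 0.0134). LOC108176081, an H2B type 1-B-like gene with few counts, had 0.540, 3.33, 1.39, 0.764 and 0.442 CPM in the Perthes rabbits and 9.93, 7.02 and 5.46 CPM in the controls. The highest Perthes rabbit stayed below the lowest control, and the log2 fold change was -2.53 (SE 0.61, adjusted p = 0.0262).

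LOC100348578, another H2B type 1 gene, had 34.0, 177, 77.1, 97.5 and 52.0 CPM in the Perthes rabbits and 495, 560.5 and 391.5 CPM in the controls. Here control 2 was the highest library, and the gene fell by 2.46 on the log2 scale (SE 0.46, adjusted p = 0.0139). LOC100343141, also H2B type 1, had 12.8, 104.6, 39.9, 30.3 and 21.0 CPM in the Perthes rabbits against 289.5, 218 and 173 CPM in the controls. It fell by 2.44 on the log2 scale (SE 0.58, adjusted p = 0.0258). LOC100346241, one of the 2 H2B genes with the highest mean CPM, had 45.5, 280.4, 111, 81.5 and 59.4 CPM in the Perthes rabbits and 620.2, 409 and 385 CPM in the controls. Its log2 fold change of -2.03 (SE 0.54, adjusted p = 0.0366) was reached with Perthes rabbit 2 far above the rest of its group. The groups of all these H2B genes did not overlap. One H2B gene, LOC100344442, was called (adjusted p = 0.0499) although its groups overlapped.

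H2A genes had fewer members called. Of 16 tested 5 fell, and 12 had a lower level at an unadjusted p below 0.05. With Perthes rabbit 2, the nearest to the controls, left out after its values were seen, 13 were called lower. The class summed to 271, 1999, 708, 460.5 and 449 CPM in the Perthes rabbits and to 3974, 2338 and 2349 CPM in the controls, so that Perthes rabbit 2 reached close to the lower controls. LOC100348744, an H2A type 1 gene, fell most among those called, from 251, 191 and 154 CPM in the controls to 13.6, 82.3, 34.1, 32.2 and 22.5 CPM in the Perthes rabbits. Its log2 fold change was -2.43 (SE 0.49, adjusted p = 0.0166), with no overlap of the groups.

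The 2 H2A genes with the highest mean CPM did not pass. LOC100353691, H2A type 2-A, had 46.7, 382, 144, 81.5 and 94.1 CPM in the Perthes rabbits and 709, 394 and 332 CPM in the controls. Perthes rabbit 2 lay above control 3, and the log2 fold change was -1.68 (SE 0.61, adjusted p = 0.0929). Without that rabbit it was -2.39 (adjusted p = 0.00684). LOC100347019, H2A type 1-H, had 29.8, 295, 78.9, 62.0 and 62.7 CPM in the Perthes rabbits and 542, 298 and 396 CPM in the controls. Its groups touched without overlap, and the log2 fold change was -1.96 (SE 0.64, adjusted p = 0.0682), or -2.82 without Perthes rabbit 2 (adjusted p = 0.00220).

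The smallest change of the replication-dependent type was that of LOC100357913, H2A type 2-C, at -0.81 (SE 0.69, adjusted p = 0.449), where Perthes rabbit 2 had 108 CPM and control 2 had 37.3 CPM. LOC100347535, H2A type 1, had the lowest log2 fold change of all members, -2.71, but with an SE of 1.62. It was at 0 in 3 Perthes rabbits and in control 1, and 8.92 CPM in control 2 carried most of its signal. Both genes were picked after the values were seen.

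H3, which carries many of the modified residues of the nucleosome tails, had 3 of 7 tested genes called. All 7 had a lower level at an unadjusted p below 0.05. All 7 were also called without Perthes rabbit 2, which was left out after its high values were seen, so this adds no support. The class summed to 154, 1066, 371, 315 and 241 CPM in the Perthes rabbits and to 2212, 1368 and 1464 CPM in the controls. LOC100354195, the H3 gene with the highest mean CPM, is described as H3.v1. It had 33.5, 254, 95.2, 79.8 and 52.8 CPM in the Perthes rabbits and 734, 473 and 416 CPM in the controls. No Perthes rabbit reached the controls, and the gene fell by 2.39 on the log2 scale (SE 0.57, adjusted p = 0.0262). LOC103350067, described as histone H3, had 23.9, 232, 69.6, 58.5 and 40.1 CPM in the Perthes rabbits and 479, 261 and 269.5 CPM in the controls. Its groups did not overlap either, but its log2 fold change of -1.99 (SE 0.64, adjusted p = 0.0668) did not pass.

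H4, the partner of H3 in the core, had 10 of 12 genes called, with log2 fold changes from -2.33 to -1.53. Those of all 12 ran from -2.33 to -1.05. The class summed to 332, 1354, 632, 465 and 452 CPM in the Perthes rabbits and to 2765, 1987 and 1603 CPM in the controls. LOC100346459, the H4 gene with the highest mean CPM, had 78.2, 222, 117, 83.1 and 87.5 CPM in the Perthes rabbits and 477, 323 and 272 CPM in the controls. It fell by 1.60 on the log2 scale (SE 0.37, adjusted p = 0.0228). LOC100349756 had 44.8, 211, 95.6, 74.7 and 70.7 CPM in the Perthes rabbits and 391.7, 311 and 248 CPM in the controls, a fall of 1.67 on the log2 scale (SE 0.44, adjusted p = 0.0346). Neither gene's groups overlapped. The H4-like gene LOC103349693 was called with overlapping groups (adjusted p = 0.0436), and LOC100351746 (H4C16 in RefSeq) and LOC100353786 were not called, at -1.77 and -1.05 (adjusted p = 0.0660 and 0.161).

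The single linker gene of the replication-dependent type among the members was LOC100344156, H1.3. It had 32.4, 172, 70.9, 62.5 and 44.3 CPM in the Perthes rabbits and 331, 208 and 216 CPM in the controls. All Perthes rabbits lay below the controls, and the gene fell by 1.72 on the log2 scale (SE 0.48, adjusted p = 0.0436).

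Reads of near-identical copies limit what a single member's value means. Where a read matches several genes, the authors' quantification gives each a part of it, which leaves counts that are not whole. Between 82.8% and 87.5% of the members' values in a library were not whole (beyond 0.001 of a whole number), against 10.01% to 10.7% of the values of all genes. Most genes of the replication-dependent type thus have uncertain single values, whereas a class sum does not depend on how reads were split within that class. Single values of the variants H2AX and H3.3 (LOC100346558) are uncertain too, as neither had a whole count in any of the 8 libraries. Only 7 members had whole counts in all 8 libraries, of which 4 were tested and 2 fell. One of these 2, picked after its values were seen, was LOC100354956, an H4 gene named H4C14 in RefSeq. It had 18.4, 74.5, 27.2, 30.2 and 26.8 CPM in the Perthes rabbits and 204, 195 and 134 CPM in the controls, without overlap. Its log2 fold change was -2.33 (SE 0.41, adjusted p = 0.0134).

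The other was H2A.Z (LOC100348415, H2AZ1 in RefSeq), a variant found at promoters and enhancers that is made throughout the cell cycle. It had 26.7, 38.7, 29.8, 35.9 and 32.5 CPM in the Perthes rabbits and 96.9, 65.3 and 72.0 CPM in the controls. The spread within the Perthes group was small (32.7 ± 4.77 CPM, SD, n = 5, against 78.1 ± 16.6 CPM, SD, n = 3), and Perthes rabbit 2 was close to the others. H2A.Z fell by 1.25 on the log2 scale (SE 0.18, adjusted p = 0.0118). The call was lost without control 2 alone among the 8 fits that leave out a rabbit, where the log2 fold change was -1.37.

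H2AX (LOC100358742), the variant phosphorylated at DNA breaks, has transcripts both with a stem-loop and with a poly(A) tail. It had 15.2, 145, 56.2, 38.9 and 31.7 CPM in the Perthes rabbits and 329, 166 and 161 CPM in the controls. Perthes rabbit 2 stood above the rest of its group and below the controls. The log2 fold change of -1.93 (SE 0.62, adjusted p = 0.0645) did not pass, and without Perthes rabbit 2 it was -2.62 (adjusted p = 0.00649).

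**Figure D3:**
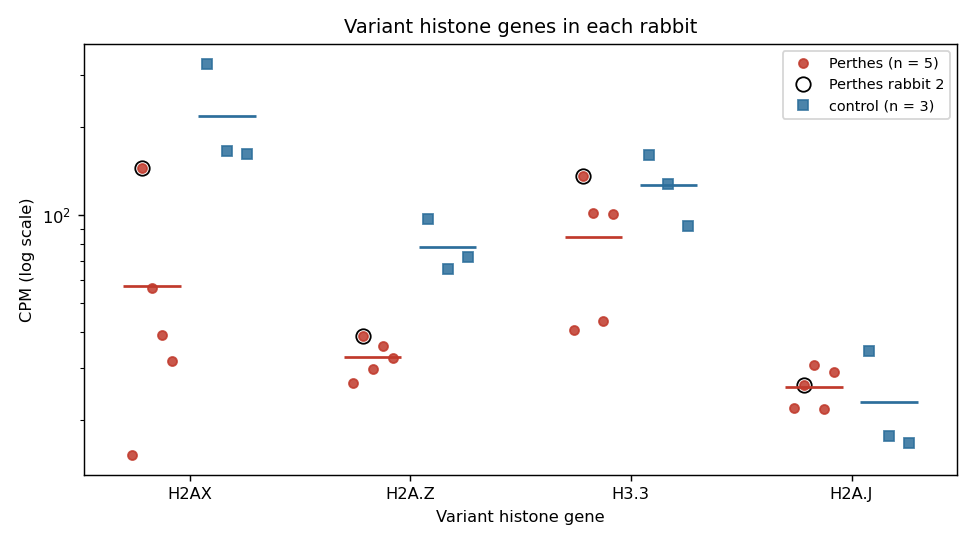
CPM (log scale) of 4 variant histone genes in each rabbit, with Perthes rabbits as red circles, controls as blue squares and group means as bars. Perthes and control rabbits are apart for H2A.Z and H2AX, which are lower in Perthes, and overlap for H3.3 and H2A.J.

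H3.3 and H2A.J did not pass the test. H3.3 (LOC100346558), which is deposited outside replication, had 40.6, 136, 102, 43.4 and 101 CPM in the Perthes rabbits and 160.5, 127 and 91.7 CPM in the controls. Perthes rabbits 2, 3 and 5 lay within the control range, and the log2 fold change was -0.58 (SE 0.41, adjusted p = 0.356). H2A.J (LOC100350997) had 22.0, 26.2, 30.8, 21.8 and 29.2 CPM in the Perthes rabbits and 34.4, 17.7 and 16.7 CPM in the controls. Control 1 was the highest library, and the log2 fold change was 0.18 (SE 0.26, adjusted p = 0.669).

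The 3 H3.3-like genes had at most 2.54 CPM in any library and overlapping groups. Their log2 fold changes were -0.76 (LOC100357927), -0.14 (LOC100341005) and 0.35 (LOC100354792), with adjusted p of 0.544, 0.902 and 0.676.

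Proportions between genes were also computed in each library. For each 100 summed CPM of replication-dependent H3, the H3.3 gene LOC100346558 had 26.3, 12.7, 27.5, 13.8 and 41.8 CPM in Perthes rabbits 1 to 5 and 7.26, 9.33 and 6.26 CPM in the controls. Every Perthes rabbit had a higher proportion of this gene than any control, with Perthes rabbit 2 nearest to them. This gene had no whole count in any of the 8 libraries, so its proportion depends on how shared reads were split. The proportion leaves out H3-3A (178 ± 36.1 CPM, SD, n = 5, in the Perthes group and 221 ± 32.9 CPM, SD, n = 3, in the controls) and H3F3B (172 ± 8.04 and 195 ± 39.2 CPM, likewise), which also code for H3.3 and which the description rule did not choose, so it does not measure all H3.3 RNA. For each 100 summed CPM of replication-dependent H2A, H2A.Z had 9.84, 1.94, 4.21, 7.798 and 7.23 CPM in the Perthes rabbits and 2.44, 2.79 and 3.07 CPM in the controls. Perthes rabbit 2 lay below the controls here and the other 4 lay above them. H4 took 22.0% to 29.0% of the summed core histone CPM in the Perthes rabbits and 19.5% to 21.1% in the controls, also without overlap. It was the only core class whose share separated the groups. The shares of H2A (23.7% to 32.4% against 24.8% to 29.5%), H2B (28.3% to 35.6% against 33.5% to 39.6%) and H3 (13.5% to 17.3% against 14.5% to 17.8%) overlapped. These proportions compare the same genes between libraries and were given no test.

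Positions of the members relative to each other were taken from the gene order of RefSeq on the assembly mOryCun1.1, which is not the authors' build. There 58 of the 64 members were matched. In that order, members no more than 10 places from the next formed 4 runs of at least 3 members. The largest run held 24 members, of which 23 were tested and 19 fell. In the remaining runs 4 of 8, 3 of 7 and 2 of 5 members fell, and the median log2 fold changes of the 4 runs were -1.94, -1.95, -1.91 and -1.98. The sums over the 4 runs were all lower in every Perthes rabbit than in any control, with a control mean 3.69-fold to 4.12-fold the Perthes mean. Of the 14 members in no such run, 11 were tested, 2 fell and the median was -0.76, and most of the variants were among these 14. Of the 6 unmatched members, 5 were tested and 3 fell.

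Perthes rabbit 2 had the highest level of the Perthes group in 52 of the tested members, and Perthes rabbit 1 had the lowest in 50. Among all 8 rabbits, control 1 was highest in 51 members. Most members thus ordered the rabbits alike, and copies that share reads cannot vary independently of each other.

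Of 12 listed genes for transcription and 3' end processing of histone mRNA that were in the table, 2 fell, beside 8.87% of all genes called lower, and the median log2 fold change was -0.29 beside 0.02 over all genes. The list summed to 327, 306, 265, 278 and 297 CPM in the Perthes rabbits and to 386, 350.5 and 354 CPM in the controls, without overlap. HINFP, a transcription factor of H4 genes, had 7.16, 12.99, 11.6, 9.64 and 9.84 CPM in the Perthes rabbits and 23.2, 17.3 and 13.7 CPM in the controls (log2 fold change -0.82, SE 0.24, adjusted p = 0.0486). ERI1, an exonuclease that trims the stem-loop end, had 15.6, 12.5, 8.92, 13.5 and 12.1 CPM in the Perthes rabbits and 18.1, 21.2 and 21.9 CPM in the controls (log2 fold change -0.70, SE 0.19, adjusted p = 0.0408). Neither gene's groups overlapped, although the gap was narrow for HINFP. LSM11, a subunit of the U7 particle that guides the cleavage, was at -0.55 (adjusted p = 0.0651). The listed genes SLBP and NPAT were not analysed here.

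Of 24 listed chaperones and deposition factors of histone proteins 9 fell, beside 8.87% of all genes, with a median of -0.40. MMS22L, which works with TONSL on newly copied chromatin, had 15.1, 16.7, 13.4, 13.6 and 13.2 CPM in the Perthes rabbits and 28.9, 25.04 and 22.9 CPM in the controls. Its groups did not overlap. It fell by 0.83 on the log2 scale (SE 0.15, adjusted p = 0.0136), and ANP32E, which removes H2A.Z, fell by 0.88 (SE 0.20, adjusted p = 0.0214). A further 6 were CHAF1B, ASF1B, NASP and SSRP1, which escort new histones, HJURP, the chaperone of the centromeric variant, and TONSL. Their log2 fold changes ran from -1.88 (HJURP) to -0.65 (SSRP1). ATRX, DAXX and CABIN1, which act with H3.3, were at 0.30, -0.20 and -0.38 and were not called (adjusted p = 0.504, 0.519 and 0.210). The listed genes CHAF1A and HIRA were not analysed here. Without Perthes rabbit 3 or 5 or control 1 or 2, the 11 calls on both lists became 3, 2, 1 and 0.

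S phase genes fell as well. Of the 24 listed S phase genes that the table holds, 23 fell, beside 8.87% of all genes. CDT1, which licenses origins, was at -1.70 (adjusted p = 0.0506). The median log2 fold change of the list was -1.36. PCNA, the sliding clamp of DNA polymerases, had 53.6, 67.5, 50.2, 50.3 and 49.4 CPM in the Perthes rabbits and 127, 103 and 108 CPM in the controls (log2 fold change -1.06, SE 0.16, adjusted p = 0.0118). CCNE2, a cyclin of S phase entry, had 5.20, 10.9, 5.62, 7.46 and 4.94 CPM in the Perthes rabbits and 19.7, 19.04 and 22.4 CPM in the controls, and fell by 1.58 on the log2 scale (SE 0.27, adjusted p = 0.0133). The groups did not overlap for either gene. Without Perthes rabbit 3 or 5 or control 1 or 2, the 23 calls became 11, 9, 2 and 0.

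**Figure D4:**
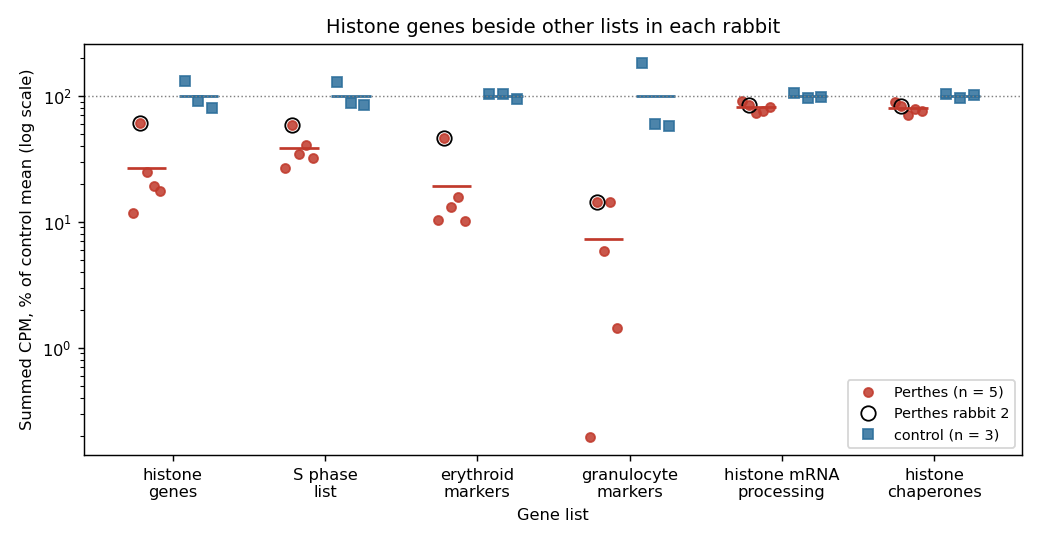
Summed CPM of the histone genes and of 5 other lists in each rabbit as a percentage of the control mean (log scale), with Perthes rabbits as red circles, controls as blue squares and group means as bars. Histone genes lie at 11.7% to 60.4% in the Perthes rabbits and S phase genes at 26.9% to 58.2%, while the processing and chaperone lists lie between 70.3% and 90.0%.

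The summed CPM of the S phase list was 461, 995, 595, 689.6 and 551 in the Perthes rabbits and 2184, 1502 and 1447 in the controls. For each CPM of the S phase list the members had 2.80, 6.72, 4.64, 3.104 and 3.50 CPM in the Perthes rabbits and 6.60, 6.67 and 6.07 CPM in the controls. Perthes rabbit 2 thus had as much histone RNA per S phase RNA as the controls, and the other 4 had less. As all these values come from the same libraries, the association was not tested.

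Markers of erythroid and granulocyte precursors were also lower in sum in every Perthes rabbit than in any control. Summed CPM of 11 erythroid precursor markers was 675, 3003, 846, 1022 and 663 in Perthes rabbits 1 to 5 and 6729, 6684 and 6145 in the controls. Perthes rabbit 2, the highest of its group for the histone genes, was also the highest here. All 11 erythroid markers had every Perthes rabbit below every control, beside 13.9% of all genes. Their log2 fold changes ran from -3.30 to -0.67, with standard errors of up to 1.20. Of the 11, 2 fell (beside 8.87% of all genes), among them TFRC, the transferrin receptor (adjusted p = 0.0442). DESeq2 called 7 lower, beside 11.0% of its genes. For each CPM of erythroid markers the members had 1.91 to 3.26 CPM in the Perthes rabbits and 1.43 to 2.14 CPM in the controls. TFRC, the marker that fell least, made up most of the marker sum in Perthes rabbits 1 and 5 (641 of 675 and 579 of 663 CPM). It was also 427 of 846 CPM in Perthes rabbit 3 and 551 of 1022 CPM in Perthes rabbit 4, against 582 of 3003 CPM in Perthes rabbit 2. In control 1 it was a small part (853 of 6729 CPM). The sum and this ratio thus understate how far the other erythroid markers fell, and the ratio does not show that histone RNA followed them.

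Granulocyte precursor markers (6 of 11 listed genes in the table) summed to 19.3 to 1407 CPM in the Perthes rabbits and to 5644 to 17951 CPM in the controls. Of these, 3 of 6 fell, beside 8.87% of all genes. In the opposite direction, in which 6.21% of all genes were called, 6 of 8 macrophage markers rose, with sums of 779 to 7337 CPM against 396 to 453 CPM. So did 2 of 8 osteoclast markers (2856 to 5782 against 1335 to 2423 CPM) and 3 of 7 markers of fibroblasts and smooth muscle (13577 to 24823 against 1378 to 8334 CPM). B lineage markers overlapped in sum (51.8 to 81.3 against 53.1 to 98.3 CPM), with 1 of 6 tested called lower. EdgeR called none of the tested markers of T cells (4), endothelium (6), adipocytes (4) or skeletal muscle (2). At an unadjusted p below 0.05, 1 endothelial marker was higher and 1 muscle marker lower, and DESeq2 called 1 endothelial marker higher. The part of these cell types in the histone result was not tested.

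The tissue label was checked against markers of the femoral head. Chondrocyte markers summed to 36750.0 to 149214 CPM in the Perthes rabbits and 47621 to 68421 CPM in the controls, and markers of osteoblasts and osteocytes to 1667 to 3047 CPM and 1139 to 2198 CPM. Both ranges overlapped, and edgeR called none of the 9 and 8 tested genes. At an unadjusted p below 0.05, 2 genes of each list were higher, and DESeq2 called 1 bone marker higher. No listed marker of these lists was at 0 in all libraries.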

How the data were processed

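Directional libraries were made from 5 μg of rRNA-depleted total RNA of each femoral head (5 Perthes and 3 control rabbits). Reads were filtered with SOAPnuke, mapped with HISAT2 2.0.4 and quantified with HTSeq 1.99.2 and RSEM 1.1.17. Per gene, expected counts without normalization were deposited by the authors, and these were rounded to whole counts here. Another 8 columns repeat these values and were not used. Groups came from the sample labels. For 1 control the code (3) and the title disagree on the number, and the code was followed. Nothing states that litters or days were shared, and the deviations of same-numbered rabbits cannot decide whether rabbits were paired.

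Counts were normalized by TMM, filtered with filterByExpr and tested with the quasi-likelihood test of edgeR 4.0.16 (R 4.3.3), and p-values were adjusted by Benjamini-Hochberg over 15305 genes. The SE of a log2 fold change is the change over the root of F. The biological coefficient of variation was 0.361. Libraries held 26757094 to 29461494 counts, and the parts of counting error and of variation between rabbits in a single member's error were not separated. The methods were tested on simulated counts. DESeq2 1.42.0, other scalings, filters, member rules, a replicate block and leaving out each rabbit were the alternatives.

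The histone genes and all lists were chosen with earlier results of these data known. Full values are given for the 2 genes of highest mean CPM in each class of the replication-dependent type, the tested variants, the 5 largest falls among called members with groups that did not overlap, and the 3 smallest p of each other list. Some genes that these rules name are not reported here. No sequence or coordinates were used, as no genome of the authors' build was at hand.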

Additional observations from a re-analysis of the deposited data

Results flagged for a closer look

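Of 38 sets of 5 Perthes values checked (named genes and sums), 14 had 1 rabbit far from the other 4, with a gap to the nearest above 0.71 of the whole range. Chance flags about 1 in 20 such sets, and sets that share reads or genes are not independent. In all 14 the rabbit was Perthes rabbit 2, and it was the highest. The single genes were LOC100344156 (H1.3) at 171.6 CPM, LOC100353691 (H2A type 2-A) at 382 CPM, LOC100347019 (H2A type 1-H) at 295 CPM, LOC100346241 (H2B type 1) at 280.4 CPM, LOC100354195 (H3.v1) at 254 CPM, LOC103350067 (H3) at 232 CPM and LOC100346459 (H4) at 222 CPM. Outside the histone genes it was PCNA at 67.5 CPM. The sums were those of all members (6693 CPM), of replication-dependent H1 (171.6 CPM, the same single gene), H2A (1999 CPM), H2B (1746 CPM) and H3 (1066 CPM), and of the erythroid markers (3003 CPM). Groups of 3 controls were too small to be checked.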

How the results depend on the processing

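The 33 members called lower became 47 with DESeq2, 34 with DESeq2's size factors, 41 with library totals alone, 32 without a low-count filter, 34 with at least 10 counts in every library and 30 among members not described as like another gene. Among members with whole counts in all libraries 2 were called. At the paper's thresholds edgeR called 0 and DESeq2 6. At an adjusted p below 0.05 DESeq2 called 1 member higher. Leaving out 1 rabbit gave 0 to 49 members lower (the same beyond a log2 fold change of 1), 0 to 11 processing and chaperone genes and 0 to 24 S phase genes. The ratio of the members' share of counts was 0.172 to 0.287 in those fits, 0.267 with TMM-scaled library sizes and 0.245 without the member of highest count. With library totals alone the median of all genes was -0.06.

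With the replicate number as a block, 0 members were called lower (36 at an unadjusted p below 0.05), with 0 in the processing, chaperone and S phase lists as well. No source states that the numbers pair the rabbits, and Perthes rabbits 4 and 5 have no control of their number. Same-numbered deviations correlated at -0.317, 0.161 and -0.238. Only Perthes rabbit 2 of 3 correlated best with the control of its own number. Deviations from a mean of 3 controls are not independent, so these correlations cannot decide whether rabbits were paired. Directions turned only for 3 variants that were not called. LOC100341005 was at 0.38 with the block and between -0.55 and 0.58 with 1 rabbit left out, LOC100350997 between -0.0048 and 0.60, and LOC100357927 between -1.31 and 0.011. Apart from the block and rabbits left out, named genes lost a call in 2 cases, ERI1 and HINFP without a low-count filter. Where calls changed the cause was not tested.

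With 5 and 3 rabbits and a wide spread in the Perthes group, calls for single members rest on few samples. The p-values set the difference between groups against the variation among the libraries of these rabbits, as estimated in part across genes. No batches are given in the sources used here.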

Other observations

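Another 11 histone genes are named in other words in the table and were left out by the description rule. Of 10 tested 4 fell in edgeR's test, beside 8.87% of all genes, and 6 had a lower level at an unadjusted p below 0.05, beside 16.6%. The median log2 fold change was -1.20. The linker gene H1-4 fell by 1.87 on the log2 scale (SE 0.39, adjusted p = 0.0176) and H1-5 fell by 2.43 (SE 0.58, adjusted p = 0.0261). H1-5 had 23.9, 190.3, 69.9, 73.1 and 38.5 CPM in the Perthes rabbits and 607, 323 and 352 CPM in the controls. H1-2 and H1-1 were at -1.70 and -1.55 with overlapping groups (adjusted p = 0.0591 and 0.105). H2AZ2, a second gene of the H2A.Z type, had 25.8, 23.3, 21.6, 25.8 and 23.5 CPM in the Perthes rabbits and 52.6, 35.8 and 40.9 CPM in the controls, and fell by 0.85 (SE 0.16, adjusted p = 0.0139). CENPA, the centromeric H3 variant, fell by 1.94 (SE 0.57, adjusted p = 0.04999) with Perthes rabbit 2 above control 3.

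The main H3.3 genes H3-3A and H3F3B and the variants macro-H2A.1 and macro-H2A.2 were not called. Their log2 fold changes were -0.31 (SE 0.20), -0.18 (SE 0.17), -0.23 (SE 0.22) and 0.18 (SE 0.24), with adjusted p of 0.327, 0.483, 0.509 and 0.642. H1-6, a linker histone of the testis, had at most 0.214 CPM and was not tested.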
